A study of Mus musculus with 8 samples.

Results

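The 7 genes described here encode the granins and granin-like proteins of dense-core granules: Chga, Chgb, Scg2, Scg3, Scg5, Vgf and Pcsk1n. They were chosen by name from the 23366 genes of the deposited table, and all 7 had enough counts to be tested among 11721 genes. The RNA profiles came from beta cells sorted from the pancreas of 8- to 10-week-old mice of the NOD strain, which is prone to autoimmune diabetes. A bottom and a top population were sorted, with 4 libraries each, and each population has 2 libraries in batch 1 (replicates 1 and 2) and 2 in batch 2 (replicates 3 and 4). Each library was amplified from about 1000 cells, and the labels name no treatment or engineered allele, and do not say which marker defined the populations, whether animals were pooled or whether libraries came from separate animals. P-values therefore rest on the spread among these libraries, and some of it may be technical.

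Granins are acidic proteins that endocrine cells and neurons package with their hormones. In the trans-Golgi network they aggregate at low pH and high calcium, which helps to form the granule, and prohormone convertases cut several of them into peptides. In beta cells they share the granule with insulin, and in NOD mice chromogranin A, the product of Chga, is a source of peptides that diabetes-causing T cells recognise. Several granin promoters are known to carry a cyclic AMP response element (CRE), TGACGTCA, to which factors of the CREB family bind.

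RefSeq promoter sequences (GRCm38.p6) were matched by symbol for 6 of the 7 genes, all but Vgf. The 100 bases before the annotated start are shown, on the gene's own strand, for the pair of genes that passed the test in opposite directions and for the 2 others with CRE letters in that stretch. Capitals mark TGACGTCA or its 5-letter end TGACG, searched on both strands. These lie at chr12:102554841-102554940 (plus strand) for Chga, chr2:132781542-132781641 (plus strand) for Chgb, chr1:79440027-79440126 (minus strand) for Scg2 and chr9:75684057-75684156 (minus strand) for Scg3.
Chga: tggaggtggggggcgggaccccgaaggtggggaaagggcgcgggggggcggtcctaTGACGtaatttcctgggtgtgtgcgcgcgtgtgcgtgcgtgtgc
Chgb: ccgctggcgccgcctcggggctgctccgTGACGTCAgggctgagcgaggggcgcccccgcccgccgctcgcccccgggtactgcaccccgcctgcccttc
Scg2: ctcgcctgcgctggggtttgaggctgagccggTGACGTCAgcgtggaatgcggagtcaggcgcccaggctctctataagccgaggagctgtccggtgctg
Scg3: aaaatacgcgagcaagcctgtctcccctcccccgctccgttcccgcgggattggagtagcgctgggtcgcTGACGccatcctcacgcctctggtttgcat
The full 8-letter element stood 72 bases before the start of Chgb and 68 bases before the start of Scg2. Within 250 bases upstream it was found in 2 of the 6 matched promoters, and in 1.55% of all 32851 promoters of the table. The letters TGACG, or CGTCA on the other strand, which the full element also contains, were found in 5 of the 6 (all but Pcsk1n) and in 17.8% of all promoters. They began 44 bases before the start of Chga, 30 before that of Scg3 and 175 before that of Scg5. A match describes letters and not a bound site, and binding was not measured.

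Libraries held between 6657639 and 11262368 estimated counts, and levels are given in CPM, counts per library scaled to a common size with TMM factors. Transcripts of insulin, which defines the labelled type, were present in all libraries, but not evenly, and those of other islet hormones were abundant as well. Insulin, from Ins1 and Ins2, took between 2.75% and 7.16% of the counts in bottom libraries and between 26.6% and 40.1% in top libraries. The beta cell factor Mafa had 0 counts in all 8, and whether reads of this gene could be counted at all was not tested. Pdx1 averaged 3.97 CPM in bottom and 4.84 CPM in top, and Nkx6-1 averaged 1.84 CPM in bottom and 7.23 CPM in top. Of 11 tested beta cell markers, 3 passed as lower in bottom, where 0.162% of all tested genes did. All 11 had a negative log2 fold change (median -2.76). For 9 of the 11 the populations did not overlap, and the same held for 7.22% of all tested genes. Several delta and PP cell markers were higher in bottom, while 0 of 8 tested alpha cell markers passed. The alpha cell hormone gene Gcg averaged 64046 CPM in bottom and 88639 CPM in top. In bottom the delta cell hormone gene Sst averaged 42608.5 CPM and the PP cell hormone gene Ppy 42459 CPM. Beside them Ins2 averaged 39454 CPM and Ins1 8719 CPM in bottom. The summed delta cell list, of which 3 of 4 tested genes passed as higher in bottom, stood at 33482 to 57875 CPM in bottom and 2688 to 5336 CPM in top, with 1 of its 6 genes, Nts, at 0 throughout. The summed PP and epsilon cell list, of which 2 of 4 passed as higher, stood at 11360 to 92010 CPM in bottom and 1206 to 2369 CPM in top. Of all tested genes 0.282% passed as higher in bottom. Delta and PP cells also make granins, and the part of these cells and of alpha cells in the values below was not tested. In these bulk samples a smaller number of cells of one type and less RNA per cell cannot be told apart.

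The leading difference was a swap between the chromogranins. Chga fell in bottom cells to 0.367 of its level in top cells, while Chgb rose 2.28-fold, and the other 5 genes did not pass the test. Thus 1 of the 7 genes was higher and 1 lower in bottom (edgeR quasi-likelihood test, adjusted p under 0.05), where 0.282% of all tested genes were called higher, 0.162% lower and 0.444% either way. DESeq2 and limma-trend called the same 2 members in the same directions, where DESeq2 called 5.01% and limma-trend 1.17% of all tested genes. The median log2 fold change of the 7 was -0.20, beside 0.00328 over all tested genes. For 3 of the 7 (Chga, Chgb and Scg3) bottom and top libraries had no overlap, and the same held for 7.22% of all tested genes.

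Scaling to total counts put the median log2 fold change of all genes at 0.34, and scaling to totals without Ins1 and Ins2 put it at -0.19. Relative to that median Chga stood at -1.45 under both and Chgb at 1.19 under both. A change of scaling shifts all genes by nearly the same amount, so this likeness follows from the subtraction and does not show stability. Chga was not called with total counts (edgeR adjusted p = 0.0932), nor Chgb with totals without Ins1 and Ins2 (edgeR adjusted p = 0.101). Of the genes called, 63.5% were higher in bottom with TMM, 77.5% with total counts and 44.4% with totals without insulin.

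Chga stood at 567, 1103, 693 and 584 CPM in libraries bottom 1 to 4, and at 1810.2, 2525, 1821 and 1821 CPM in libraries top 1 to 4. Every bottom library lay below every top library, with bottom 2 the highest of bottom and top 2 the highest of top. The means were 737 ± 250.4 CPM in bottom and 1994 ± 354 CPM in top (SD, n = 4), a log2 fold change of -1.44 with an SE of 0.25 (edgeR adjusted p = 0.0493). In batch 1 alone the log2 fold change was -1.40 and in batch 2 alone -1.50. The call was lost without top 1 (edgeR adjusted p = 0.121), top 2 (0.182), top 3 (0.119), top 4 (0.141), bottom 3 (0.166) or bottom 4 (0.180), while the log2 fold change over the 8 omissions lay between -1.66 and -1.30. Scaling by RLE (-1.40), scaling by total counts (-1.11) or dropping the batch term (-1.44) also ended the call. DESeq2 gave an adjusted p of 0.000209 and limma-trend 0.0140 (0.000209 to 0.658 over all 20 alternatives). The upper end came from an edgeR fit with title numbers as blocks, described in the closing section.

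Chgb, whose product chromogranin B is the second classical granin, stood at 2408, 2350.1, 2144 and 1722 CPM in libraries bottom 1 to 4. In libraries top 1 to 4 it stood at 907, 1003, 1105 and 754 CPM. The lowest bottom library was above the highest top library. Bottom averaged 2156 ± 311 CPM and top 942 ± 149.6 CPM (SD, n = 4), a log2 fold change of 1.19 with an SE of 0.20 (edgeR adjusted p = 0.0491). Within batches the log2 fold change was 1.29 in batch 1 and 1.07 in batch 2. The call was lost without top 1 (edgeR adjusted p = 0.184), top 2 (0.182), top 4 (0.142), bottom 1 (0.0606), bottom 2 (0.102), bottom 3 (0.181) or bottom 4 (0.129), and the log2 fold change over the 8 omissions lay between 1.09 and 1.32. Scaling by total counts without Ins1 and Ins2 (1.00) or dropping the batch term (1.19) also ended the call. DESeq2 gave an adjusted p of 0.000257 and limma-trend 0.0140 (0.000257 to 0.779 over all 20 alternatives). That upper end came from the same fit with title numbers as blocks.

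**Figure D1:**
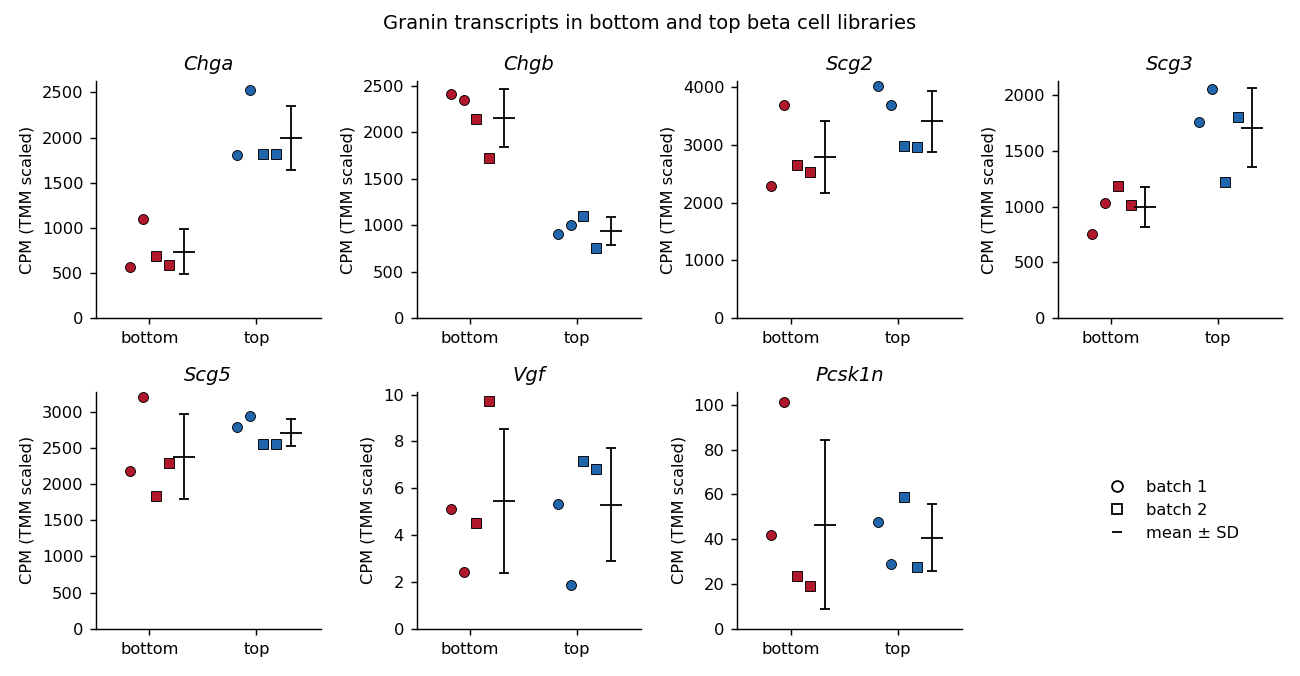
Level of each granin transcript in CPM after TMM scaling (y axes, linear from 0) in the 4 bottom libraries (red) and the 4 top libraries (blue); circles are batch 1, squares batch 2, and bars the mean ± SD. Chga lies at 567 to 1103 CPM in bottom and 1810.2 to 2525 CPM in top, and Chgb at 1722 to 2408 CPM in bottom and 754 to 1105 CPM in top, without overlap.

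Because a ratio of genes within a library does not depend on how libraries are scaled, the chromogranins were also set against each other. Chgb had 4.24, 2.13, 3.10 and 2.95 counts per Chga count in libraries bottom 1 to 4, and 0.501, 0.397, 0.607 and 0.414 in libraries top 1 to 4. Chgb counts thus exceeded Chga counts in every bottom library and were below them in every top library. The mean ratio was 3.11 ± 0.870 in bottom and 0.480 ± 0.0962 in top (SD, n = 4). On the log2 scale the populations differed by 2.67, by 2.75 within batch 1 and by 2.59 within batch 2, and by 2.51 to 2.84 when any 1 library was left out. No test was made of this ratio, since the pair was chosen with its difference known.

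Summed over the 7 genes, granin counts took overlapping shares of all counts in both populations, whereas insulin shares did not overlap. The granin share was 0.808%, 1.09%, 1.12% and 1.01% of the counts in libraries bottom 1 to 4, and 1.01%, 1.04%, 0.849% and 0.940% in libraries top 1 to 4. The ranges overlapped. The means were 1.01% ± 0.140 in bottom and 0.960% ± 0.0850 in top (SD, n = 4), with no test made of a sum over chosen genes. With insulin counts left out of the total, the share was 1.06% ± 0.161 in bottom and 1.46% ± 0.254 in top, so its direction depends on the denominator. Without that change, the difference of 0.0462 percentage points became -0.0754 in batch 1 and 0.168 in batch 2. It was 0.112 without bottom 1, 0.0178 without bottom 2, 0.00917 without bottom 3, 0.0733 without top 2 and 0.00937 without top 3. Insulin counts per granin count numbered 3.40, 6.05, 4.33 and 7.11 in libraries bottom 1 to 4 and 36.1, 38.5, 31.3 and 33.04 in libraries top 1 to 4. The highest bottom value lay far below the lowest top value.

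Within the granin counts the shares of the chromogranins had no overlap between populations, and those of the other 5 genes overlapped. Chgb made up 24.0% ± 4.04 of them in bottom and 8.78% ± 1.73 in top, and Chga 7.93% ± 1.23 in bottom and 18.4% ± 1.91 in top. Scg2 made up 30.5% ± 1.86 in bottom and 31.5% ± 2.63 in top, and Scg5 26.0% ± 3.03 in bottom and 25.2% ± 1.03 in top. Scg3 made up 11.1% ± 2.45 in bottom and 15.7% ± 2.41 in top, with overlapping ranges (SD, n = 4 for all).

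**Figure D2:**
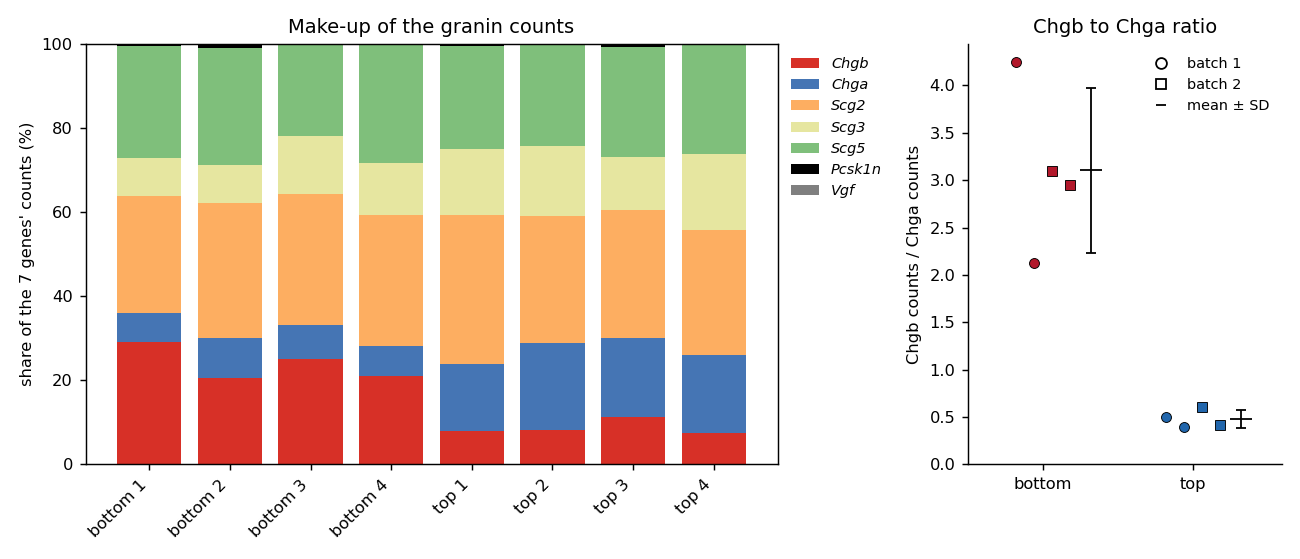
Left, share of each gene (%) in the summed counts of the 7 granin genes, 1 bar per library, bottom before top; Chgb (red) takes 20.5% to 29.2% in bottom and 7.59% to 11.3% in top. Right, Chgb counts divided by Chga counts per library, with mean ± SD, at 2.13 to 4.24 in bottom and 0.397 to 0.607 in top.

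Neither secretogranin passed the test. Scg3, whose product binds chromogranin A and the cholesterol-rich granule membrane, stood at 751, 1032, 1185 and 1018 CPM in libraries bottom 1 to 4 and at 1762, 2054, 1217 and 1801 CPM in libraries top 1 to 4. All bottom libraries were below all top libraries, but bottom 3 and top 3 nearly touched. The log2 fold change was -0.78 (SE 0.24), it did not pass over all genes (edgeR adjusted p = 0.266), and it was -1.12 in batch 1 alone and -0.44 in batch 2 alone. Scg2, the precursor of the peptide secretoneurin, stood at 2298, 3695, 2650 and 2534 CPM in libraries bottom 1 to 4 and at 4015, 3693, 2975 and 2964 CPM in libraries top 1 to 4. The populations overlapped through bottom 2, and the log2 fold change was -0.28 (SE 0.19, edgeR adjusted p = 0.712). With total counts as the only scaling, the fitted log2 fold change of Scg2 turned to 0.05.

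The chaperone and inhibitor of the prohormone convertases, the enzymes that cut hormone precursors, did not pass the test. Scg5 encodes 7B2, which the convertase encoded by Pcsk2 needs to become active. It stood at 2183, 3204, 1839 and 2284 CPM in libraries bottom 1 to 4 and at 2793, 2936, 2558 and 2558 CPM in libraries top 1 to 4. The bottom libraries spread more widely than the top libraries and spanned them on both sides (log2 fold change -0.20 with SE 0.19, edgeR adjusted p = 0.815). Under total counts alone the value for Scg5 turned to 0.13. Its partner Pcsk2 averaged 1817 ± 1053 CPM in bottom and 1853 ± 382 CPM in top, a log2 fold change of -0.15 with an SE of 0.28 (edgeR adjusted p = 0.923) whose sign turned under total counts, in batch 1 alone and without top 3 or bottom 3 (0.03 to 0.26).

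Pcsk1n encodes proSAAS, an inhibitor of the convertase encoded by Pcsk1. It stood at 42.1, 101.1, 23.5 and 19.3 CPM in libraries bottom 1 to 4 and at 47.5, 29.1, 58.6 and 27.6 CPM in libraries top 1 to 4, from 174 to 1082 counts per library. Bottom 2 alone exceeded the top libraries, and without it the bottom mean was 28.3 CPM in place of 46.5. The log2 fold change was -0.05 (SE 0.56, edgeR adjusted p = 0.987), made of 0.88 in batch 1 and -0.997 in batch 2, and its sign turned in 7 of the 20 alternatives. Pcsk1 itself stood at 79.2, 19.5, 129.7 and 79.0 CPM in libraries bottom 1 to 4 and at 333, 197, 207 and 311 CPM in libraries top 1 to 4. The populations did not overlap for Pcsk1, whose log2 fold change of -1.87 (SE 0.49) did not pass over all genes (edgeR adjusted p = 0.182). Pcsk1 was called by DESeq2 (adjusted p = 0.0100) and by edgeR with no low-count filter (0.0402), but not by limma-trend (0.0724).

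Vgf, the precursor of several neuroendocrine peptides, had the fewest counts of the 7, at 15 to 105 counts per library. It stood at 5.13, 2.43, 4.53 and 9.73 CPM in libraries bottom 1 to 4 and at 5.32, 1.88, 7.17 and 6.83 CPM in libraries top 1 to 4. The populations overlapped almost wholly (log2 fold change 0.05 with SE 0.81, edgeR adjusted p = 0.990). The sign of the Vgf value turned in 5 of the 20 alternatives.

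**Figure D3:**
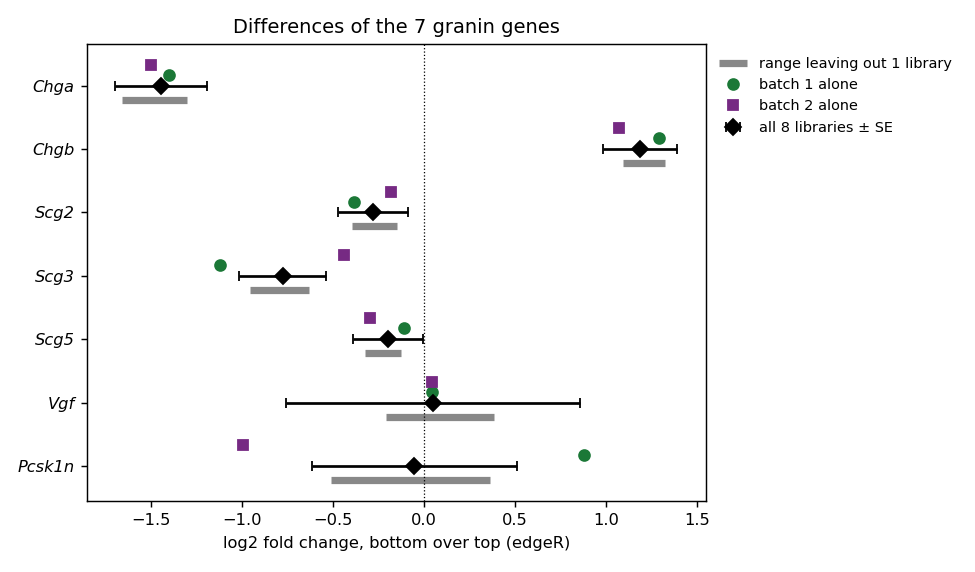
Log2 fold change of each granin gene, bottom over top (x axis, edgeR), with its SE over all 8 libraries (diamonds), the range when any 1 library was left out (grey), batch 1 alone (circles) and batch 2 alone (squares). Chga stays between -1.66 and -1.30 and Chgb between 1.09 and 1.32 over the omissions, while Pcsk1n lies at 0.88 in batch 1 and -0.997 in batch 2.

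None of the 7 genes passed a test of whether its difference varied between batches (interaction term, edgeR adjusted p of at least 0.710, 0 of 7 at an unadjusted p under 0.05, and 0 of 7 by limma-trend on either count). Over all 11721 genes edgeR and limma-trend called 0 as well, with 7.55% and 7.29% at an unadjusted p under 0.05, so these counts show nothing particular to the 7. The lowest unadjusted p among the 7 was 0.0701, for Pcsk1n.

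Divided by transcript length (the longest protein-coding transcript in GENCODE M21, from 1208 bases for Scg5 to 2834 for Vgf), levels can be ranked between genes. In bottom the order of mean CPM per kilobase was Scg5 at 1968 ± 483, Scg2 at 1111 ± 246, Chgb at 787 ± 113, Scg3 at 418 ± 75.6, Chga at 391 ± 133, Pcsk1n at 21.2 ± 17.2 and Vgf at 1.93 ± 1.09. In top it was Scg5 at 2244 ± 155, Scg2 at 1357 ± 209.7, Chga at 1059 ± 188, Scg3 at 717 ± 148, Chgb at 344 ± 54.6, Pcsk1n at 18.6 ± 6.82 and Vgf at 1.87 ± 0.853 (SD, n = 4). Chgb and Chga exchanged places around Scg3. Ranges of neighbours overlapped between Scg3 and Chga in bottom and between Scg2 and Chga in top, and all other neighbours in these orders were separate. The spread within populations differed by gene. The coefficient of variation of the CPM was 14.4% in bottom and 15.9% in top for Chgb, 34.0% in bottom and 17.7% in top for Chga, and 24.5% in bottom and 6.89% in top for Scg5. It was widest for Pcsk1n in bottom, at 81.2%, against 36.8% in top. By mean CPM over both populations, 5 of the 7 ranked from place 12 (Scg2) to place 41 (Scg3) among all tested genes.

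Across the 8 libraries Scg2 and Scg5 had the most similar profiles among the 7 genes. The root mean square difference of their log2 CPM, each centred on its own mean, was 0.157. For Chga and Chgb it was 1.37, the widest of all 21 pairs. Among all tested genes the profiles nearest to Chga were those of Arfgap3, which acts on the small GTPase ARF1 at the Golgi (0.127), Faf1 (0.244) and Nkx2-2, a transcription factor of islet cells (0.258). Arfgap3 averaged 35.6 ± 11.3 CPM in bottom and 97.6 ± 12.4 CPM in top (log2 fold change -1.46 with SE 0.33, edgeR adjusted p = 0.111).

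Nearest to Chgb were Cyp2j13 (0.189), Sri, which encodes the calcium-binding protein sorcin (0.221), and the gamma actin gene Actg1 (0.234). Nearest to Scg3 were Manf, which encodes a secreted protein of the stressed endoplasmic reticulum (0.133), Golgb1, which encodes the Golgi protein giantin (0.142), and Wbp5 (0.143). Scg2 and Scg5 shared the neighbours Sec11a, a subunit of the signal peptidase (0.134 and 0.128), and Prkar1a, a regulatory subunit of protein kinase A (0.147 and 0.102). Scg2 was also near Nars, an aminoacyl-tRNA synthetase (0.135), and Scg5 near Eef1d, an elongation factor subunit (0.133). Pcsk1n lay nearest to Cpsf1 (0.206), Ppp2r1a (0.244) and Tk2 (0.269), and Vgf to Il2ra (0.268), Mlxip (0.300) and Epb4.2 (0.301). None of these neighbours passed the test between populations. These likenesses describe 8 libraries and carry no test.

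Other genes of the dense-core granule were mostly lower in bottom by sign, and few passed the test. Of 58 listed symbols 56 were in the table, the other 2 being alternative names of listed genes, and 52 had enough counts to be tested. Among those 52, 3 passed as lower in bottom and 0 as higher in edgeR, where 0.162% of all tested genes were called lower and 0.282% higher. At an unadjusted p under 0.05 in edgeR, 12 of the 52 were lower and 0 higher. Of all tested genes 10.3% lay under it, and 4.63% were lower. DESeq2 called 9 of the 52 lower and limma-trend 7, and each called 0 higher. Over all 11721 tested genes DESeq2 called 219 lower and 368 higher, and limma-trend 59 lower and 78 higher. The median log2 fold change of the 52 was -0.43 beside 0.00328 over all tested genes, and 73.1% of the 52 were negative beside 49.9% of all. With total counts as the scaling 30 of the 52 were negative in place of 38, at a median of -0.11. In either case 38 lay below the median of all genes, which moves with the scaling, so that count could hardly change.

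Among granule cargo and processing enzymes, 2 of 10 passed as lower and the list's median log2 fold change was -0.76. Ins2 averaged 39454 ± 16164 CPM in bottom and 318156 ± 66286 CPM in top (log2 fold change -2.99 with SE 0.30, edgeR adjusted p = 0.00498). Ins1 averaged 8719 ± 2860 CPM in bottom and 60269.7 ± 15773 CPM in top (log2 fold change -2.76 with SE 0.27, edgeR adjusted p = 0.00498). Reads shared by these closely similar genes were divided between them by estimation, so each level is less certain than their sum.

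Among granule membrane proteins 1 of 21 passed as lower, with a list median of -0.42. That gene, Sytl4, encodes granuphilin, which docks insulin granules at the plasma membrane. It stood at 15.9, 27.0, 52.0 and 41.1 CPM in libraries bottom 1 to 4 and at 426, 378, 339 and 531 CPM in libraries top 1 to 4 (log2 fold change -3.72 with SE 0.35, edgeR adjusted p = 0.00498). Every bottom library lay below every top library. Among granule biogenesis and sorting genes none of 21 passed in edgeR (4 at an unadjusted p under 0.05, 2 called by DESeq2 and 1 by limma-trend), and the median was -0.42.

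In 11 of the 52 genes every bottom library lay below every top library, and in 0 above, where 3.91% and 3.31% of all tested genes did so. Chosen after their values were seen, the 11 were Ins1, Ins2, Iapp, Npy, Pcsk1, Slc30a8, Sytl4, Atp6ap2, Ica1l, Tssc1 and Rab2a. Slc30a8, the zinc transporter that loads insulin granules, averaged 314 CPM in bottom and 932 CPM in top (log2 fold change -1.64 with SE 0.30, edgeR adjusted p = 0.0628, called by DESeq2 and limma-trend). The highest log2 fold change in these lists was 0.61, beside 1.19 for Chgb. Without bottom 2 the count of genes called lower was 5 in place of 3.

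**Figure D4:**
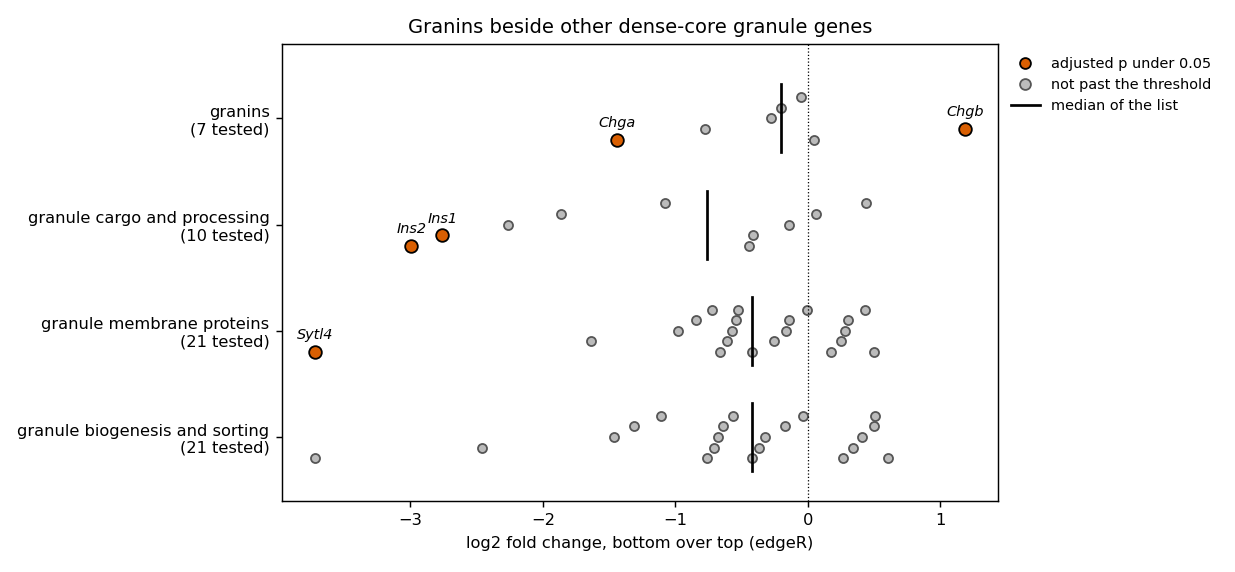
Log2 fold change, bottom over top (x axis, edgeR), of every tested gene of the granin list and of 3 lists of other dense-core granule genes; orange points passed at an adjusted p under 0.05 and black lines are list medians. Chgb is the 1 orange point right of 0, while Chga, Ins1, Ins2 and Sytl4 lie left of it.

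Some libraries also carried transcripts of cells from outside the islet. Intestinal epithelial genes, none of whose 11 tested members passed, summed to 30596, 7020.0, 40.9 and 13.8 CPM in libraries bottom 1 to 4 and to 1946, 167, 52.4 and 892 CPM in libraries top 1 to 4. Genes other than Chga that mark enteroendocrine cells, the hormone cells of the gut, which also make granins, summed to 608, 23.6, 14.6 and 23.0 CPM in bottom and to 2.16 to 9.17 CPM in top, with Gip, Nts, Pax4 and Insl5 at 0 throughout. In bottom 1 these were mainly Sct at 475 CPM and Tph1 at 133 CPM. In libraries bottom 2 to 4 the largest value was that of Neurog3, at 19.1, 8.53 and 19.5 CPM. There the sum rested mainly on this gene. Bottom 2 also held Sct at 4.58 CPM beside its 7020.0 CPM of intestinal epithelial genes, and the part of gut cells in these sums was not tested. Without bottom 1 and bottom 2 the log2 fold change was -1.52 for Chga (edgeR adjusted p = 0.0652) and 1.05 for Chgb (0.227), and that of the Chgb to Chga ratio was 2.68.

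Of 4 tested fibroblast and stellate cell genes 2 passed as higher, where 0.282% of all tested genes did. That list summed to 3.28, 181, 218 and 788 CPM in libraries bottom 1 to 4 and to 0.251 to 16.0 CPM in top. Endothelial genes, of which 0 of 7 could be tested, reached 279.7 CPM in bottom 4 and 6.67 CPM in top 4. Neuronal and Schwann cell genes summed to 54.7 to 78.5 CPM in bottom and to 60.4 to 76.8 CPM in top, and neurons express Vgf and Scg2 as well. Acinar genes summed to 122 to 1505 CPM in bottom and 22.2 to 236 CPM in top, and duct genes to 276 to 795 CPM in bottom and 140 to 396 CPM in top. Leukocyte genes summed to 0.765 to 4.32 CPM in bottom and 4.52 to 14.0 CPM in top, with Csf1r and Itgax at 0 throughout. The summed alpha cell genes, which include Gcg, stood at 29161 to 142477 CPM in bottom and 65548 to 138424 CPM in top. None of the tested acinar, duct, alpha cell, neuronal or leukocyte markers passed. The part of these transcripts in the granin values was not tested.

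Hormone levels varied among the bottom libraries. Sst, the delta cell hormone, stood at 51102, 55701, 31584 and 32046 CPM in libraries bottom 1 to 4, where Chgb stood at 2408, 2350.1, 2144 and 1722 CPM. Ppy, the PP cell hormone, stood at 64905, 78759, 8226 and 17944 CPM in the same libraries, a wider range than that of Chgb. Ins2 stood at 22278, 57769, 30147 and 47622 CPM there, beside 567, 1103, 693 and 584 CPM of Chga. Bottom 2 was the highest of bottom for Ins2, Ppy, Sst, Gcg, Chga, Scg2, Scg5 and Pcsk1n.

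Referring back to the promoters, the 8-letter element stood before Chgb, which rose, and before Scg2, whose log2 fold change was -0.28. The 5-letter end stood before Chga, Scg3 and Scg5. In Chga it lay within TGACGtaa, which differs from the full element by 1 letter. Transcription factors that respond to activity and cyclic AMP, such as Fos and Crem, summed to 5300.4, 7140.5, 7657 and 7981 CPM in libraries bottom 1 to 4 and to 3103, 2936, 5019 and 5088 CPM in libraries top 1 to 4. None of the 11 passed the test in edgeR, 9 had a positive log2 fold change, and the list's median was 0.83 (1.16 with total counts, where 11 were positive, and 0.63 with totals without insulin). Under each of the 5 scalings 2 of the 11 lay below the median of all genes. Since that median moves with the scaling, this count could hardly change. Fos, the highest of the 11, averaged 2652 CPM in bottom and 1531 CPM in top (log2 fold change 0.81). Crem, 1 of the 2 with a negative log2 fold change (-0.13), averaged 70.3 CPM in bottom and 77.3 CPM in top. Any link between these factors, the promoter letters and the granin levels was not tested.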

How the data were processed

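RNA was profiled in 8 libraries from sorted beta cells, by SMARTer amplification and Nextera XT tagmentation per the labels' protocols. The deposited values were expected counts, estimates of reads per gene; the tools RSEM and edgeR and the build mm9 come from the submitters' processing notes. Aligner and annotation are not given in the sources used here. Over 23366 genes the series table and the per-library tables differed by 0. Of the values 34.8% were not whole, and all were rounded. Per the labels, the kit is not described as keeping strand, so overlapping antisense reads could not be separated.

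Counts were tested with edgeR 4.0.16 (R 4.3.3): TMM scaling, filterByExpr by population, quasi-likelihood test of bottom against top with batch as covariate, Benjamini-Hochberg adjustment over 11721 genes, and calls at an adjusted p under 0.05. The tested genes held at least 98.01% of each library's counts. A positive log2 fold change means higher in bottom, and its SE is the size of the change divided by the root of the F statistic. Alternatives used DESeq2 1.42.0, limma 3.58.1, other scalings, no filter, no batch term, single batches and omitted libraries. The procedure was also run on simulated data with larger changes than those of the chromogranins and no batch effect. That run therefore does not bear on the calls of Chga and Chgb. Libraries of one population differed by far more than sampling noise (chi-square per degree of freedom at least 43.7).

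The members and lists were chosen with earlier results of these data known. Named genes were the 7 members, called genes of 3 granule lists, Pcsk1, Pcsk2, 5 hormone genes, and the 3 genes nearest to each member by root mean square difference of centred log2 CPM (prior count 2). Other genes named, among them Slc30a8, further granule genes without overlap between populations, single markers such as Mafa, Sct and Tph1, and Fos and Crem as examples of their list, were chosen after their values were seen. Promoters came from RefSeq, GRCm38.p6, and transcript lengths from GENCODE M21, both of a later build than mm9. No molecular identifiers are described in the labels, so amplified reads are not independent molecules.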

Additional observations from a re-analysis of the deposited data

Results flagged for a closer look

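Among 24 sets of 4 libraries, made of 10 named genes, the summed granin share and the Chgb to Chga ratio in each population, 1 held a library far from the others. Chga in top 2 stood at 2525 CPM, and its gap to the next library took 0.985 of the range of the 4 top libraries, above Dixon's 95% critical value for 4 values. The other 3 top libraries lay within a narrow band of 1810.2 to 1821 CPM. Chance flags about 1 in 20 such sets. Without top 2 the log2 fold change of Chga was -1.37 (edgeR adjusted p = 0.182, with 0.0380 to 0.182 over the 8 omissions).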

How the results depend on the processing

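Of the 7 granin genes, 1 was called higher and 1 lower in bottom, and 0 were called higher with scaling by totals without Ins1 and Ins2, with no batch term, in batch 1 or batch 2 alone, or without bottom 1 and bottom 2 together. For lower calls the count was 0 with RLE or total-count scaling, no batch term, either batch alone, or without bottom 1 and bottom 2. Leaving out 1 library gave 0 to 1 higher and 0 to 1 lower. Over all genes 52 were called, against 587 with DESeq2, 137 with limma-trend, 204 with no low-count filter, 32 with no batch term, 2 in each batch alone and 8 to 60 with 1 library left out. In the 3 granule lists 3 were called lower, against 9 with DESeq2, 7 with limma-trend, 5 with upper-quartile scaling or totals without insulin, 8 with no filter, 0 in each batch alone and 3 to 5 with 1 library left out. The cause of these changes was not tested, but single batches hold 2 libraries per population. Log2 fold changes turned sign under total counts for Scg2 (0.048), Scg5 (0.13), Pcsk1n (0.28) and Pcsk2 (0.18). Vgf turned with totals without insulin (-0.15) and lay between -0.21 and 0.38 over the omissions. Pcsk1n turned with no batch term (0.19) and in batch 1 (0.88) and lay between -0.51 and 0.36 over the omissions, and Pcsk2 turned in batch 1 (0.26) and lay between -0.41 and 0.037. The difference in summed granin share, 0.0462 percentage points, was -0.0754 in batch 1 and -0.396 without insulin counts, and 0.00917 to 0.112 over the omissions. The log2 fold changes of Chga, Chgb, Scg3, Pcsk1 and Sytl4 and the Chgb to Chga ratio kept their direction under all alternatives run for them.

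Libraries numbered 1 in the titles occur once per population and batch, giving 2 possible pairs, and the labels do not say that the number marks anything shared. Their deviations from the group means correlated at 0.0874 and 0.000497, so the numbers were not taken as pairing. With the title number as a replicate block, edgeR called 0 of all genes (0 granin genes higher, 0 lower, and 0 lower in the granule lists), with log2 fold changes of -1.53 for Chga, 1.18 for Chgb and -0.36 for Vgf. Only the 2 pairs bear on the contrast in that fit, and 1 residual degree of freedom is left. Its lack of calls therefore cannot tell whether the genes differ. Vgf had the fewest counts of the 7 genes, 15 to 105 per library, and the part of depth in its spread was not tested.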
